A study of Oryza sativa with 6 samples.

Results

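The 5 rice genes JAZ9 (LOC4331832), JAZ10 (LOC4331834), JAZ11 (LOC4331833), JAZ12 (LOC4348533) and JAZ13 (LOC4348531) encode jasmonate ZIM-domain (JAZ) proteins, repressors of signalling by the plant hormone jasmonate. All probe sets that the array annotation assigns to these genes were taken, which gave 6 probe sets, of 57194 non-control probe sets on the array. The genes are 5 of 17905 with a probe set of their own. They were chosen by their log2 differences between OsUBA RNAi and wild-type seedlings in earlier results of the same arrays, so that comparison is described here and not tested.

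Transcript levels were measured in rice seedlings (Oryza sativa) on 1-colour Affymetrix rice arrays, 2 biological replicates in each of 3 groups. The groups were seedlings with RNA interference against OsUBA (RNAi, silencing through double-stranded RNA that matches the transcript), seedlings overexpressing OsUBA, and wild-type seedlings of the cultivar Nipponbare. All seedlings were grown at 28 °C without treatment up to the stage of 4 leaves. The promoter, the number of lines and the cultivar of the transgenic plants are not given in the sources used here, and no group carries a construct without OsUBA. One reporter probe set was bright in both transgenic groups (log2 13.16 ± 0.35 in RNAi, 14.19 ± 0.32 in overexpression, 3.05 ± 0.11 in wild type; SD, n = 2), and another was bright in RNAi (13.43 ± 0.30) but not in overexpression (4.34 ± 1.06) or wild type (4.33 ± 1.17). In these arrays the OsUBA constructs and transformation itself cannot be told apart in any comparison with wild type. The RNAi and overexpression groups also differed in the latter reporter probe set. Between them the OsUBA level and other features of the constructs cannot be told apart either.

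Jasmonate is made from membrane lipids after wounding and attack, and it also acts in growth and flower development. JAZ proteins bind transcription factors such as MYC2 and hold them inactive, together with the adaptor NINJA and co-repressors of the TOPLESS family. When the conjugate jasmonoyl-isoleucine is present, the receptor COI1 binds JAZ proteins and marks them for degradation by the proteasome, and the freed factors switch on target genes, JAZ genes among them. JAZ transcripts are for that reason widely used as a readout of jasmonate signalling, although they encode its repressors.

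Levels are given as deposited, as log2 expression values of a probe set on each array, and a difference of 1 on this scale is a change by a factor of 2. Each probe set has its own brightness, so levels were compared between groups within a probe set and not between genes. A probe set was tested if at least 2 of the 6 arrays reached log2 5. All 6 JAZ probe sets reached that value on all 6 arrays, the lowest value being 5.10, so none entered through its high group alone. Array medians lay between 5.67 and 5.92. Defining genes of green leaf were bright on every array, with the brightest probe sets of the rubisco small subunit RBCS at log2 14.66 to 15.05 and the light-harvesting gene CAB2R at 15.61 to 15.84. By their brightest probe sets 0 of the 3 measured leaf genes passed in any comparison (limma adjusted p of 0.492 to 0.993; 0 with an unadjusted p under 0.05, 0 without a trend). Another RBCS probe set, at 12.04 to 13.43, differed from wild type by -0.85 ± 0.30 in overexpression and -0.70 ± 0.30 in RNAi. Its unadjusted limma p values were 0.022 and 0.0481, and the adjusted ones 0.429 and 0.453. Of 4 root genes, the silicon transporter Lsi1 lay at 8.95 to 10.01, PIN9 lay at 4.35 to 5.56, and Lsi2 and NAS1 did not pass the filter.

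In RNAi seedlings all 5 genes stood above every other array of the series. JAZ9, which in rice has been tied to ion balance under salt, read log2 9.33 and 9.43 in RNAi, 6.35 and 6.40 in overexpression and 6.51 and 5.10 in wild type. Both RNAi arrays lay at least 2.82 above the other 4, the widest gap of the 6 probe sets, while overexpression lay within the wild-type range. Across the 6 probe sets 0 had overexpression arrays both above or both below the wild-type pair, an order seen in 17.3% and 24.4% of all probe sets tested. JAZ11, a neighbour of JAZ9, read 10.32 and 11.57 in RNAi, 8.40 and 9.28 in overexpression and 8.55 and 8.36 in wild type. Its lower RNAi array exceeded the highest of the others by 1.04, the smallest gap.

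JAZ10 has 2 probe sets. The first read 10.65 and 10.41 in RNAi, 7.61 and 8.88 in overexpression and 9.06 and 8.06 in wild type. The second, of the type named s_at whose probes can match more than one transcript, read 12.35 and 12.24 in RNAi, 9.40 and 10.76 in overexpression and 10.83 and 10.33 in wild type. Both placed the RNAi arrays highest and had overexpression on either side of a wild-type array.

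JAZ12 read 12.22 and 12.43 in RNAi, 9.31 and 10.39 in overexpression and 9.79 and 9.56 in wild type. JAZ13, which in rice has been linked to cell death, read 10.29 and 9.35 in RNAi, 5.94 and 7.74 in overexpression and 6.18 and 6.27 in wild type. In both genes the overexpression arrays lay on either side of the wild-type pair. The pattern of RNAi above all 4 other arrays was met by 6 of 6 JAZ probe sets, and by 13.2% of all 40466 probe sets tested. It is part of what chose the genes and carries no test. These are levels in bulk seedlings, in which more cells that express a gene and more transcript per cell cannot be told apart.

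**Figure D1:**
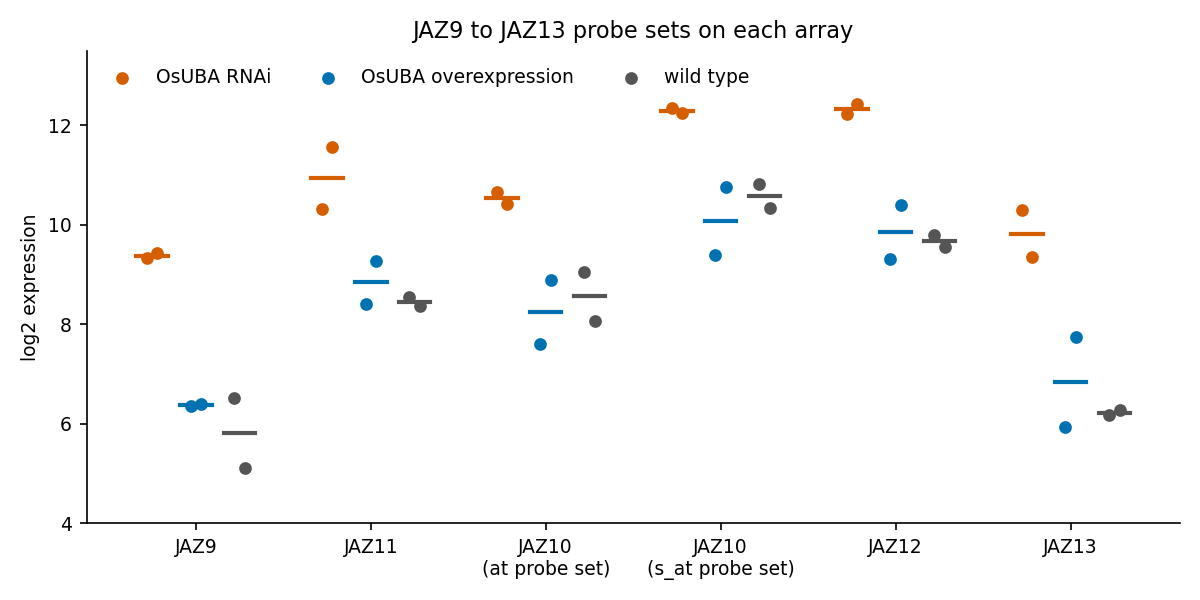
Log2 expression (vertical axis) of the 6 probe sets of JAZ9 to JAZ13 on each array. Points are arrays, lines are means of the 2 replicates of a group (RNAi, overexpression, wild type from left to right); in every probe set both RNAi points lie above the other 4, and the overexpression and wild-type points overlap.

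Relative to wild type, the RNAi difference was largest for JAZ13 (log2 difference 3.60 ± 0.59, SE from the fit; 12.1-fold) and JAZ9 (3.58 ± 0.48; 12.0-fold). JAZ12 followed with 2.65 ± 0.33 (6.28-fold) and JAZ11 with 2.49 ± 0.44 (5.61-fold). JAZ10 had the smallest difference, 1.97 ± 0.46 (3.92-fold) and 1.72 ± 0.40 (3.29-fold) in its 2 probe sets. Whether the genes differ from each other in this was not tested.

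The median over the 6 probe sets was 2.57, against 0.00 over all probe sets tested. In that comparison the limma fit with an intensity trend, in which the prior spread follows brightness, placed JAZ9, JAZ12 and JAZ13 (3 of 6 probe sets) past an adjusted p of 0.05 on the higher side. The share of all probe sets called higher was 0.19%, and 0.773% in either direction. Because this comparison chose the genes, nothing is read from that count. Without a trend 0 of the 6 were called, and 0.00247% of all probe sets.

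The fold of JAZ9 depended on wild type, where its arrays differed by 1.42. It was 19.5 without wild-type replicate 1 and 7.31 without replicate 2. That of JAZ11, whose RNAi arrays differed by 1.25, was 8.65 without RNAi replicate 1 and 3.64 without replicate 2. In JAZ10, JAZ12 and JAZ13 no single array moved the fold by more than 1.5 times.

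Between overexpression and wild type no JAZ9 to JAZ13 probe set passed. The log2 difference between overexpression and wild type was 0.57 ± 0.48 for JAZ9, 0.38 ± 0.44 for JAZ11, 0.18 ± 0.33 for JAZ12 and 0.62 ± 0.59 for JAZ13. JAZ10 was on the lower side, at -0.31 ± 0.46 and -0.50 ± 0.40. The count was 0 of 6 (limma with an intensity trend, adjusted p of 0.711 to 0.887), and 0 had an unadjusted p under 0.05. The share called among all probe sets was 0.356%, and 0.346% on the higher side. Without a trend the adjusted p values were 0.782 to 0.919, and 0% of all probe sets were called.

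A missed threshold does not show that overexpression and wild type were alike. The 95% interval of the difference was narrowest for JAZ12, from -0.58 to 0.94, and widest for JAZ13, from -0.75 to 1.99. For JAZ9 it ran from -0.54 to 1.69 and for JAZ11 from -0.63 to 1.40. For JAZ10 it ran from -1.38 to 0.76 in one probe set and from -1.43 to 0.43 in the other. The median over the 6 probe sets was 0.28, against -0.08 over all probe sets tested, and it became -0.32 without overexpression replicate 2 and 0.66 without replicate 1. The comparison shares its wild-type arrays with the one that chose the genes.

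The spread in overexpression came with a gap between its replicates. Replicate 2 read higher than replicate 1 in all 6 probe sets, by 0.05 in JAZ9, 0.88 in JAZ11, 1.27 and 1.36 in JAZ10, 1.07 in JAZ12 and 1.80 in JAZ13. Over all probe sets tested replicate 2 was higher in 53.1%, and the median size of the gap was 0.384. The RNAi arrays showed no such common step, with replicate 2 higher in 3 of the 6 and gaps from -0.94 in JAZ13 to 1.25 in JAZ11. In wild type replicate 2 was higher in 1 of the 6, with a median gap of -0.36, against 48.0% of all probe sets; these gaps enter the differences between overexpression and wild type.

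Set against overexpression, RNAi was higher by 3.01 ± 0.48 in JAZ9 (8.03-fold), 2.98 ± 0.59 in JAZ13 (7.87-fold) and 2.47 ± 0.33 in JAZ12 (5.56-fold). In JAZ10 the difference was 2.29 ± 0.46 (4.88-fold) and 2.22 ± 0.40 (4.65-fold), and in JAZ11 it was 2.10 ± 0.44 (4.30-fold). The median was 2.38, against 0.09 over all probe sets tested. All 6 probe sets were called higher in the fit with an intensity trend, where 0.954% of all probe sets were, and 4.26% in either direction. Without a trend 0 of 6 were called, and 0.0124% of all probe sets. The comparison rests on the RNAi arrays that chose the genes, so these values are a description. Without overexpression replicates 1 and 2 the fold of JAZ13 was 4.21 and 14.7. Those of the JAZ10 probe sets were 3.14 and 7.57, and 2.90 and 7.44. Without RNAi replicates 1 and 2 that of JAZ11 was 6.63 and 2.79.

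**Figure D2:**
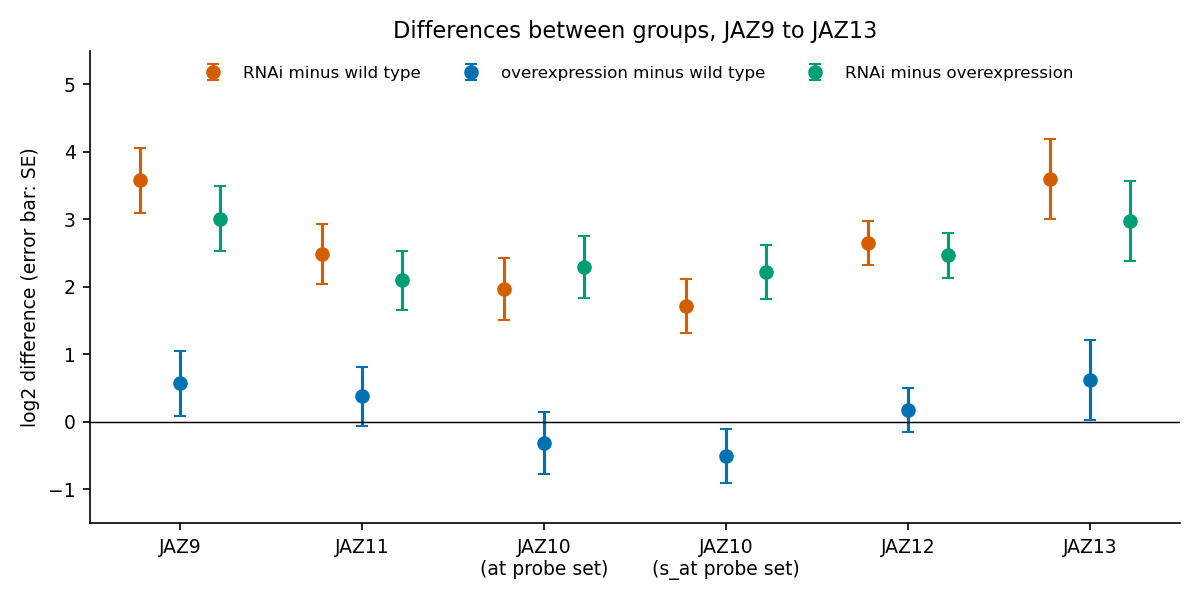
Log2 differences between groups (vertical axis) for the 6 probe sets of JAZ9 to JAZ13, with SE from the limma fit of all 6 arrays. RNAi lies between 1.72 and 3.60 above wild type and between 2.10 and 3.01 above overexpression, and overexpression minus wild type lies between -0.50 and 0.62.

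The 5 genes sit in 2 groups of neighbours. In the gene order of the RefSeq assembly ASM3414082v1, JAZ9, JAZ11 and JAZ10 follow each other on chromosome 3 with 0 annotated genes between them. JAZ13 and JAZ12 lie near each other on chromosome 10 with 3 annotated genes between them, none with a probe set of its own. All 5 also carry a TIFY11 name in the gene table, that of one subgroup of the TIFY family to which JAZ genes belong.

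No measured gene next to them was called between RNAi and wild type. Of the 10 genes flanking the chromosome 3 group, 5 on each side, 8 were measured, with log2 differences from -1.34 to 0.48 over 11 probe sets. Around JAZ13 and JAZ12, 5 of 13 genes were measured, with differences of -0.94 to 0.45 over 7 probe sets. The limma adjusted p without a trend was over the threshold for each as well, and 3 of the 11 and 0 of the 7 probe sets had an unadjusted p under 0.05 with a trend. The order of RNAi above all 4 other arrays, seen in 13.2% of all probe sets, was present in probe sets of 2 of these genes. One was LOC4331827, the outermost gene on the JAZ9 side, in all 3 of its probe sets. The brightest read 13.52 and 13.58 in RNAi, 12.84 and 13.00 in overexpression and 13.24 and 13.21 in wild type, a log2 difference of 0.33 ± 0.14 between RNAi and wild type. The other was LOC4348536 beyond JAZ12, in 1 of its 3 probe sets, which read 10.18 and 10.51 in RNAi, 10.02 and 9.86 in overexpression and 9.83 and 9.95 in wild type (0.45 ± 0.20). The opposite order, both RNAi arrays under the other 4, was present in PAA1, LOC4331836, LOC4331838, SPX3 and SPPL1. It was also present in 1 probe set each of LOC4331837 and LOC4348536, and its share of all probe sets was not computed.

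One neighbour moved in overexpression. LOC4331836, which stands next but one to JAZ10 and has no name in the gene table, read 13.10 and 13.09 in overexpression, against 10.48 and 10.50 in wild type. It rose 6.06-fold (log2 difference 2.60 ± 0.22, limma adjusted p = 0.00639 with an intensity trend and 0.182 without). The RNAi arrays read 10.23 and 9.59, which was 3.18 below overexpression on the log2 scale (adjusted p = 0.000722; 0.0604 without a trend). The call against wild type was lost without either overexpression replicate (adjusted p = 0.124 and 0.0505) or either wild-type replicate (0.115 and 0.0955), at log2 differences of 2.59 to 2.61. LOC4331838, the last of the 5 genes on that side, was lower in RNAi than in overexpression by a log2 difference of -0.82 ± 0.18 (adjusted p = 0.0497), a call lost without any 1 array (0.0724 to 0.277).

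**Figure D3:**
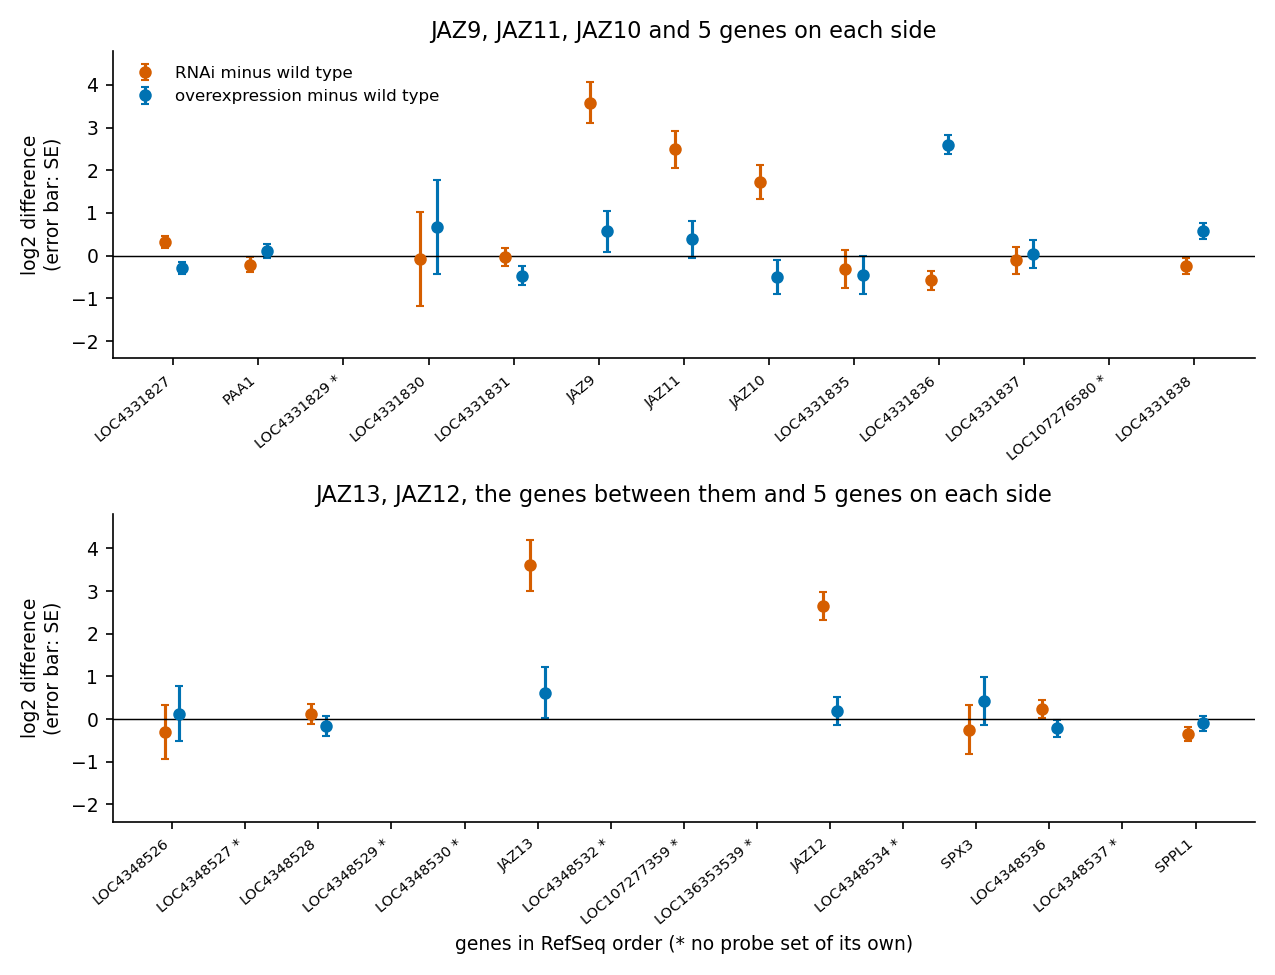
Log2 differences from wild type (vertical axis, SE bars) for the JAZ genes and their neighbours in gene order (horizontal axis), 1 probe set a gene, the one with the highest mean. RNAi values of the JAZ genes lie at 1.72 to 3.60 and those of the neighbours shown at -0.58 to 0.33; LOC4331836 stands at 2.60 in overexpression.

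Of 8 other JAZ genes on the array, JAZ2 did not pass the filter and 7 were tested, with 0 risen, 0 fallen and 7 not past between RNAi and wild type (limma adjusted p of 0.268 to 0.998; median log2 difference 0.10; 1 with an unadjusted p under 0.05, and 0 called without a trend). Of all probe sets 0.773% were called in that comparison. JAZ2, which reached log2 5 on RNAi replicate 2 alone, read 4.11 and 6.03 in RNAi, 3.26 and 1.38 in overexpression and 3.47 and 0.0 in wild type. JAZ6 read 12.53 and 13.61 in RNAi, 11.44 and 12.09 in overexpression and 12.01 and 11.80 in wild type. In both genes the RNAi arrays lay above the other 4, as in 13.2% of all probe sets tested. By their brightest probe sets JAZ6 was 1 of the 7 tested with both RNAi arrays above wild type, an order seen in 19.9% of all probe sets. JAZ5 read 7.27 and 9.18 in RNAi, 5.37 and 6.33 in overexpression and 7.57 and 6.06 in wild type. Its RNAi arrays overlapped wild type.

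JAZ8, which in rice acts in resistance to bacterial blight, read 9.02 and 12.58 in RNAi, 7.60 and 9.18 in overexpression and 10.97 and 8.92 in wild type, and its RNAi replicates differed by more than any pair of its group means. JAZ1, known in rice as the spikelet gene EG2, JAZ3, JAZ4 and JAZ7 had log2 differences between RNAi and wild type of 0.10, -0.25, 0.08 and 0.00, with SE of 0.22 to 0.31. Another probe set of JAZ4 had 0.35. It read 10.40 and 10.76 in RNAi, 9.65 and 9.94 in overexpression and 10.29 and 10.17 in wild type, so RNAi lay above the other 4. In overexpression 0 of the 7 passed against wild type (adjusted p of 0.685 to 0.957; 0 with an unadjusted p under 0.05), and between RNAi and overexpression 0 passed (0.0946 to 0.937; 2 with an unadjusted p under 0.05); without a trend both counts were 0. Of all probe sets 0.356% were called between overexpression and wild type and 4.26% between RNAi and overexpression. Whether JAZ9 to JAZ13 differ as a group from the other JAZ genes was not tested.

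JAZ genes share the TIFY motif with factors that are not jasmonate repressors. The 4 of these that were tested, TIFY1A, TIFY2A, TIFY2B and TIFY8, showed 0 calls in any comparison (adjusted p of 0.261 to 0.992; 0 without a trend). Their log2 differences between RNAi and wild type were 0.10, -0.22, 0.14 and -0.85, with 1 unadjusted p under 0.05, between RNAi and overexpression. TIFY8 stood near the filter's floor, at 3.46 and 5.06 in RNAi and 5.74 and 4.47 in wild type, and its difference had an SE of 0.92.

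Genes listed under jasmonate synthesis gave no call. The list was matched by gene name, and whether each gene acts in jasmonate synthesis was not tested. Of all probe sets, 0.773% were called between RNAi and wild type, 0.356% between overexpression and wild type and 4.26% between RNAi and overexpression. At those shares 0 calls in this list, or in the other, shorter lists, is not read as a result about jasmonate. Of 14 tested, 0 rose and 0 fell in any comparison (limma adjusted p of 0.177 to 1.0; 0 called without a trend; 2, 3 and 2 with an unadjusted p under 0.05 for RNAi against wild type, overexpression against wild type and RNAi against overexpression). AOS2, an allene oxide synthase of the first committed step, had the largest difference, on the lower side. It read 5.94 and 7.55 in RNAi, 8.07 and 9.21 in overexpression and 8.35 and 9.81 in wild type (log2 difference between RNAi and wild type -2.34 ± 0.67, adjusted p = 0.234). Both RNAi arrays lay under the other 4, an order whose share of all probe sets was not computed. Replicate 2 of AOS2 read higher than replicate 1 by over 1 in each group.

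OPR1, of the 12-oxophytodienoate reductase family, read 8.73 and 9.05 in RNAi, 7.47 and 8.58 in overexpression and 7.06 and 8.05 in wild type (1.33 ± 0.46 between RNAi and wild type, adjusted p = 0.332). The lipoxygenase gene LOX3 stood near the filter's floor, at 5.23 and 5.75 in RNAi and 3.46 and 5.33 in wild type. The median of the 14 was 0.28 between RNAi and wild type, 0.40 between overexpression and wild type and -0.29 between RNAi and overexpression. Over all probe sets tested these medians were 0.00, -0.08 and 0.09.

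Of the 2 genes of conjugation and hydrolysis, JAR1, which joins jasmonate to isoleucine, differed by -0.04 ± 0.25 between RNAi and wild type, and ILL6, an amidohydrolase whose Arabidopsis relatives cleave such conjugates, by 0.51 ± 0.34. Neither passed in any comparison (adjusted p of 0.529 to 0.978; 0 with an unadjusted p under 0.05, 0 called without a trend).

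Receptors and partners of JAZ proteins gave no call either, to be read beside the same low shares called over all probe sets. The receptor genes COI1A, COI1B and COI2 differed by -0.22 ± 0.19, 0.05 ± 0.17 and 0.26 ± 0.16 between RNAi and wild type. The adaptor NINJA1 differed by 0.09 ± 0.16, and the TOPLESS-related co-repressor TPR2 by -0.44 ± 0.18. BHLH148, a transcription factor that binds JAZ proteins and acts in drought tolerance of rice, read 10.15 and 9.83 in RNAi, 8.11 and 9.07 in overexpression and 7.99 and 8.61 in wild type. Its RNAi arrays lay above the other 4, as in 13.2% of all probe sets tested (1.70 ± 0.37 over wild type, limma adjusted p = 0.117, and 0.401 without a trend). Of the 8 genes tested in this list 0 were called in any comparison, and 2, 0 and 3 had an unadjusted p under 0.05 for RNAi against wild type, overexpression against wild type and RNAi against overexpression; 0 were called without a trend.

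Of 3 response genes 0 were called in any comparison (adjusted p of 0.128 to 0.965; 0 without a trend; 1 with an unadjusted p under 0.05 in each). JAMYB, a jasmonate-inducible MYB factor, read 8.81 and 8.21 in RNAi, 8.12 and 8.47 in overexpression and 6.21 and 7.50 in wild type, so both transgenic groups lay above wild type (log2 differences 1.66 ± 0.46 in RNAi and 1.45 ± 0.46 in overexpression). Of all probe sets 19.9% had both RNAi arrays, and 17.3% both overexpression arrays, above the wild-type pair. PBZ1, a pathogenesis-related protein of the PR10 class, read 12.20 and 13.25 in RNAi, 9.21 and 11.62 in overexpression and 11.44 and 10.82 in wild type. LIS, a linalool synthase that makes a volatile, read 12.49 on RNAi replicate 2 but 5.19 on replicate 1, and 2.85 to 5.91 on the other arrays.

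Over all 6 jasmonate lists without JAZ9 to JAZ13, 38 genes were tested. In the comparison of RNAi with wild type 28 were positive and 10 negative, with a median of 0.18 against 0.00 over all probe sets, and 0 passed. Of all probe sets 0.773% passed there. With 1 array left out, its group is a single sample, assumed to vary like the other groups. Without RNAi replicate 1, JAZ6 and LIS passed between RNAi and wild type (adjusted p = 0.0348 and 0.0275), and JAZ5, JAZ6, JAZ8 and LIS passed between RNAi and overexpression (0.0138 to 0.0487). Without overexpression replicate 2, PBZ1 passed between RNAi and overexpression (adjusted p = 0.018).

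**Figure D4:**
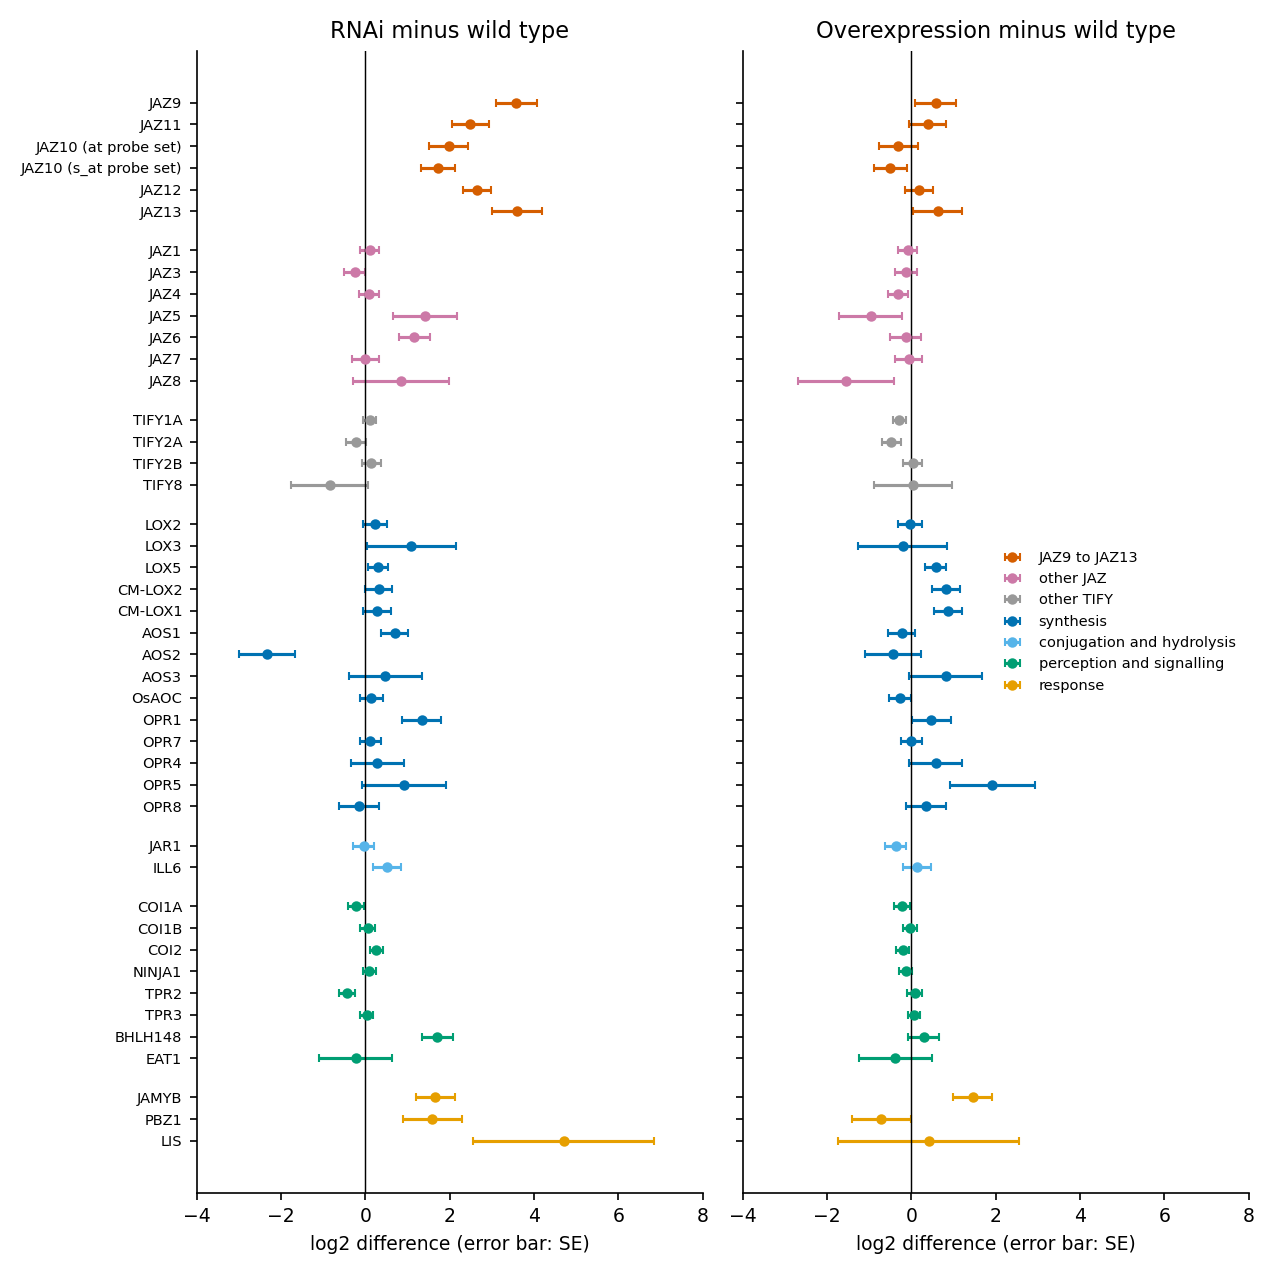
Log2 differences from wild type (horizontal axes, SE bars) for RNAi (left) and overexpression (right), for JAZ9 to JAZ13 and the 38 other jasmonate and TIFY genes tested, coloured by role. In RNAi JAZ9 to JAZ13 lie at 1.72 to 3.60 and the other JAZ genes at -0.25 to 1.41, with AOS2 at -2.34 and LIS at 4.70.

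The genes whose profile over the 6 arrays was most like each JAZ gene were found among 2847 probe sets with a gene name, by the root mean square difference of log2 values after each profile was centred on its own mean. EIL1 (LOC4332697), a transcription factor of ethylene signalling, was nearest to JAZ12 (0.322) and JAZ13 (0.427) and the third nearest to JAZ9 (0.812). It read 12.61 and 12.42 in RNAi, 9.10 and 10.67 in overexpression and 9.38 and 10.03 in wild type, and like the JAZ probe sets it was higher on overexpression replicate 2 than on replicate 1. That step is part of the profile by which EIL1 was picked, so it is no separate likeness.

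JAZ10 was closest to wrky38 (LOC4328512), a WRKY transcription factor gene, at 0.229 and 0.378 for the 2 probe sets of wrky38. The brighter of these, at 0.378, read 11.26 and 11.06 in RNAi, 8.59 and 9.79 in overexpression and 9.61 and 10.22 in wild type. CYP99A3 (LOC4335091), a cytochrome P450 of momilactone synthesis, was the third for JAZ10 (0.397). For JAZ11 the nearest were MADS34 (0.373), STAR2 (0.442) and 4CLL7 (LOC4342925, 0.448), a gene related to 4-coumarate:CoA ligases. 4CLL7 read 10.19 and 11.14 in RNAi, 8.19 and 8.68 in overexpression and 9.12 and 8.90 in wild type.

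The matched probe sets of STAR2, MADS34, PHT1-3 (nearest to JAZ9, 0.701) and HAK4 (second for JAZ13, 0.705) reached log2 5 on the 2 RNAi arrays alone. They passed the filter only through that group, so their likeness to genes high in RNAi is not read as a result. Other probe sets of STAR2 and PHT1-3 did not show the pattern. Among the JAZ genes themselves, JAZ11 and JAZ12 were most alike (0.342) and JAZ9 and JAZ10 least (0.894). These distances rest on 6 arrays that share the group differences by which the JAZ genes were chosen.

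**Figure D5:**
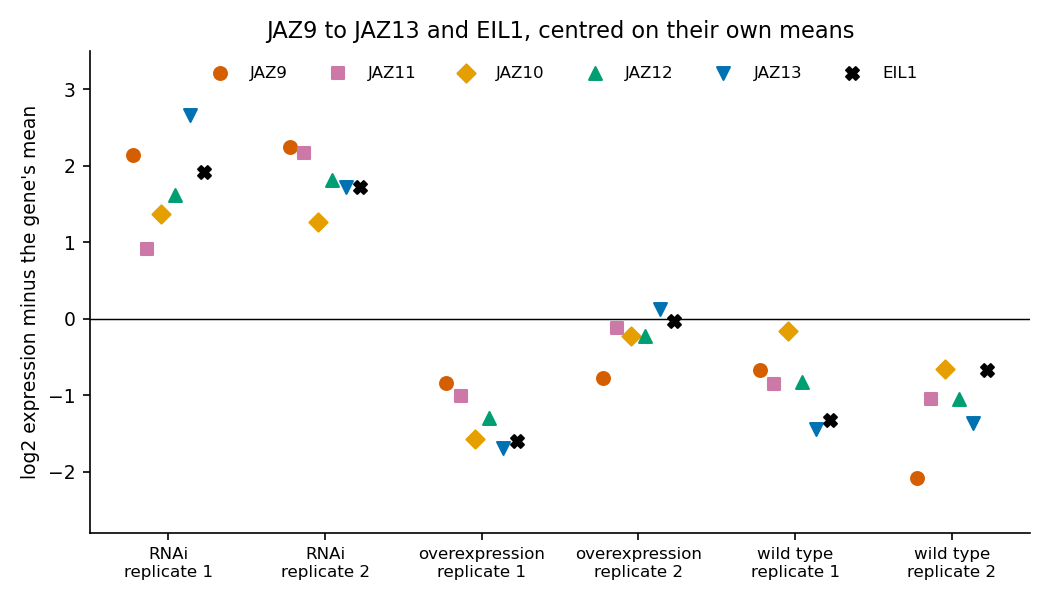
Log2 expression of JAZ9 to JAZ13 and EIL1 on each array minus the gene's own mean over the 6 arrays (vertical axis), 1 probe set a gene. All 6 genes are above their mean on both RNAi arrays (0.91 to 2.66) and below it on both wild-type arrays; in overexpression replicate 2 lies above replicate 1.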

How the data were processed

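The authors deposited log2 expression values for 57381 probe sets on 6 arrays, used here unchanged. RMA is named, with no version, in the submitters' processing notes. The values hold 331 to 618 exact zeros an array, so the summary step is not settled. Labels give 6 µg of total RNA labelled with biotin. Control (123) and reporter (64) probe sets were left out. Requiring log2 5 on 2 or more arrays left 40466 probe sets. All 17905 annotated gene identifiers were found in the RefSeq gene table.

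Groups came from the sample titles. limma 3.58.1 in R 4.3.3 fitted the 3 group means over 6 arrays (3 residual degrees of freedom) with an intensity trend, two-sided, with Benjamini-Hochberg adjustment over these probe sets and a threshold of 0.05. The median residual SD fell with brightness (1.02 under log2 6, 0.166 over 12). The fit without a trend and the other alternatives stand in the closing section. The fit was also run on simulated data drawn from the array means and its own fitted spreads, which cannot test the choice of the trend. Probe sets of a list gene were represented by the one with the highest mean.

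The JAZ genes, the jasmonate lists and the choice of the trend were made with earlier results of these data known. Named genes were all other JAZ genes and, in each other list, genes called in any comparison and the 3 with the largest difference between RNAi and wild type; TIFY1A, COI1A, COI1B and NINJA1 were added for their roles, and the neighbouring genes after the data had been seen. Nothing says whether replicates came from separate sowings, so p values measure the spread between these arrays.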

Additional observations from a re-analysis of the deposited data

Results flagged for a closer look

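Reporter probe sets lie outside the gene comparisons, and 2 of them were above wild type in RNAi or in both transgenic groups. The first averaged log2 13.43 in RNAi and 4.34 in overexpression, against 4.33 in wild type. The second averaged 13.16 in RNAi and 14.19 in overexpression, against 3.05 in wild type. Their part in the JAZ levels was not tested.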

How the results depend on the processing

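The alternatives were no intensity trend, no filter, a filter at log2 6, a filter on the mean level, quantile normalization, median centring, array weights, fits restricted to the 4 arrays of a comparison, a replicate block, averaged probe sets, and leaving out each array. In all of them 0 JAZ probe sets passed between overexpression and wild type. The median JAZ difference between RNAi and wild type was 2.55 to 2.65, and 2.32 to 2.93 with 1 array left out; between RNAi and overexpression it was 2.38 to 2.47, and 1.80 to 2.97. The small differences between overexpression and wild type changed sign with 1 array left out, in ranges of -0.95 to 0.32 and -1.18 to 0.18 (JAZ10), -0.05 to 0.82 (JAZ11), -0.36 to 0.71 (JAZ12), -0.28 to 1.52 (JAZ13) and -0.14 to 1.28 (JAZ9), none past the threshold (adjusted p of 0.235 to 0.983). The cause was not tested.

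The number of probe sets called moved most. With an intensity trend it was 144 between overexpression and wild type, 313 between RNAi and wild type and 1725 between RNAi and overexpression. Without a trend it was 0, 1 and 5. With only the 4 arrays compared it was 255 and 141 for the first and second. With 1 array left out it was 0 to 223, 16 to 716 and 276 to 1830, from fewer samples. Replicate numbers did not pair the arrays (correlations of deviations of -0.0331 to 0.0365). With the replicate block 109, 393 and 1595 probe sets were called, and of the other jasmonate genes 1, AOS2, between RNAi and wild type (adjusted p = 0.0226) and 1, again AOS2, between RNAi and overexpression (0.0155). With 1 array left out that number was 0 to 2 between RNAi and wild type and 0 to 4 between RNAi and overexpression. The deposited table gives no signal over background.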

Other observations

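All 7 other JAZ genes tested read higher on RNAi replicate 2 than on replicate 1, by 0.43 to 3.55 on the log2 scale, against 3 of the 6 probe sets of JAZ9 to JAZ13 and 50.6% of all probe sets. In overexpression replicate 2 was higher in 5 of the 7 and in all 6 probe sets of JAZ9 to JAZ13, and in wild type it was higher in 1 of the 7 and 1 of the 6. Whether the 7 genes and JAZ9 to JAZ13 differ in these gaps was not tested. LIS had a similar gap between the RNAi arrays, at 12.49 on replicate 2 and 5.19 on replicate 1. The labels give no difference between these replicates, and these gaps were noticed after the values had been seen.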
